A study of Mus musculus with 10 samples.

Results

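The genes described here are the ligands of the vascular endothelial growth factor (VEGF) family and the molecules that receive them in vessels: the ligands Vegfa, Vegfb, Vegfc and Pgf, the receptors Flt1, Kdr and Flt4, the co-receptors Nrp1 and Nrp2, and Pecam1, an adhesion molecule of endothelial cells. They were taken by name, 10 of the 17864 genes in the count table, and all 10 passed the filter on low counts that left 14816 genes for testing. RNA was sequenced from whole tumors of 4T1, a mouse mammary carcinoma cell line, carrying Cas9 and either a control guide RNA (sgCon, 5 tumors) or a guide RNA against Wwtr1, the gene of the transcriptional co-activator TAZ (sgTaz, 5 tumors). All 10 tumors thus shared the line and Cas9. Per the methods, the cells had been injected into the mammary fat pad of female mice 6 to 8 weeks old. The methods name SCID and BALB/c hosts without saying which carried these tumors, and give neither the day of harvest nor whether the edited cells were 1 clone. The guide RNA acted in the injected cells alone, whereas vessels, leukocytes and fat came from hosts that were not edited. The labels call the samples tumor cells, yet a whole tumor also holds these host cells, and a lower level of a gene in it can mean fewer cells of a type or less RNA per cell, which cannot be told apart here.

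Total counts ran from 12185383 to 19595821 per tumor, and 3 counts of the total were at most 2.46e-05% of a library, a floor that covers counting error only. Wwtr1 itself, given as the check of the labels, was at 192, 181, 115, 171 and 156 CPM (counts scaled to a common library total) in sgCon tumors 1 to 5 and at 86.6, 104, 110, 139 and 102 CPM in sgTaz tumors 1 to 5. The log2 fold change was -0.59 (SE 0.15), with adjusted p = 0.096 in edgeR and 0.0151 in DESeq2, and 4 of 5 sgTaz tumors were below every sgCon tumor. The 10 epithelial markers, which the carcinoma cells carry, summed to 2240 to 5250 CPM in sgCon and 1650 to 4080 CPM in sgTaz tumors. They were lower in sgTaz in 10 of 10 (median log2 fold change -0.50). The part of the tumor cell share in the Wwtr1 difference was not tested. The 20 endothelial markers summed to 789 to 1250 and 803 to 1430 CPM, so vessels were sampled in both groups. Libraries differed in other host tissue. The 7 B cell markers summed to 64.7 to 807 CPM in sgCon tumors and to 7.56 to 172 CPM in sgTaz tumors, and adipocyte markers separated sgTaz tumors 3, 4 and 5 from sgTaz tumors 1 and 2.

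VEGF ligands are secreted by tumor and stromal cells. VEGF-A binds the receptor tyrosine kinases encoded by Flt1 and Kdr and drives the growth and leakiness of blood vessels, chiefly through Kdr, while Flt1 binds the ligand tightly and signals weakly. VEGF-B and placental growth factor (Pgf) bind Flt1, and VEGF-C binds Flt4 and Kdr and is the main growth factor of lymphatic vessels. Neuropilins (Nrp1 and Nrp2) hold ligands and semaphorins beside the receptors and are present on endothelial cells, on subsets of macrophages and on many carcinoma and stromal cells. TAZ binds no DNA itself and acts through TEAD factors, which recognize a short motif in promoters and enhancers.

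The RefSeq sequences upstream of the start sites of the ligand and the co-receptor with the largest differences between groups, Vegfc and Nrp1, and of the 2 receptors of VEGF-A are shown because they are where a promoter motif of a TAZ partner could lie (assembly GRCm38.p6, each 5′ to 3′ on the strand of its gene, with exonic bases left out). The window of Nrp1 lies within the GENCODE gene, whose first annotated exon is further upstream, and in no exon of it. Capitals mark GC boxes, GGGCGG or its reverse complement CCGCCC, and in Flt1 also the TATA box, TATAAA.
Vegfc (chr8:54077282-54077531, plus strand): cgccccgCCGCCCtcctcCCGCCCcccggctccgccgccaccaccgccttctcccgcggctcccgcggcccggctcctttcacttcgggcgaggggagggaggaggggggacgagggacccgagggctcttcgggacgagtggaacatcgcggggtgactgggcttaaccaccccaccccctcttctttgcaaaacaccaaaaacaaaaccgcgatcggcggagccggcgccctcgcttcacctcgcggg
Nrp1 (chr8:128358823-128359072, plus strand): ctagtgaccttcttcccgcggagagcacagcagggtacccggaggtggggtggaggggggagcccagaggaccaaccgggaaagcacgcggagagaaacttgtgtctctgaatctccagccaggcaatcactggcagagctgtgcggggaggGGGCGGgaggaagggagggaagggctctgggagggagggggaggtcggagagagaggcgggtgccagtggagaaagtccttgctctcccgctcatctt
Kdr (chr5:75978459-75978705, minus strand): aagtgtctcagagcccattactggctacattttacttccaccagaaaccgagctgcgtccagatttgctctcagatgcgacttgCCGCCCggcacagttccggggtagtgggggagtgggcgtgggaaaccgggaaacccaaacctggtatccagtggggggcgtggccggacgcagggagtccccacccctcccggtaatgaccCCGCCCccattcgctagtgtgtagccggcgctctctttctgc
Flt1 (chr5:147726012-147726261, minus strand): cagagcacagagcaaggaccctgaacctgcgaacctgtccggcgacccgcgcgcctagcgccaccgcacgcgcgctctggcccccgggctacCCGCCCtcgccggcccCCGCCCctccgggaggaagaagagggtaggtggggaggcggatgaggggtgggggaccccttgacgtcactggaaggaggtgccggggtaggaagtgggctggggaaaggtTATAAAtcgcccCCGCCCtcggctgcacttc

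Start sites were found for 9 of the 10 members, in 11 windows that run from 250 bases before to 50 bases after the start. Both strands were searched. The letters of the TEAD motif, GGAATG, were in 0 of these 11 windows, against 14.7% of the 32851 mouse promoters of the same table. The core of the hypoxia response element, ACGTG, was in 1 of them, the second start site of Vegfa, against 19.6% of all promoters. A GC box was in 10 of the 11 windows and in each of the 9 members, against 35.7% of all promoters, and TATAAA was in Flt1 alone, 31 bases before its start site, against 13.6%. These matches describe letters in short windows only. Enhancers were not examined.

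Among the members, Nrp1 and Vegfc showed the largest differences between sgTaz and sgCon tumors, both higher in sgTaz, and the other 8 lay within 0.34 of 0 on the log2 scale. In edgeR's quasi-likelihood test, 0 of the 10 members had an adjusted p below 0.05, against a background of 0.00675% (1 of 14816 genes). At an unadjusted p below 0.05 in edgeR, 2 of 10 members were called, against 21.8% of all genes. Both were higher in sgTaz (background 9.86%) and 0 were lower (background 11.9%). DESeq2 called 1 member, Nrp1, at an adjusted p below 0.05 (3.28% of the genes it gave an adjusted p were called higher), and limma-voom with sample quality weights called Nrp1 and Vegfc (4.63% called higher). The median log2 fold change of the 10 members was 0.10, with 8 higher and 2 lower, beside -0.019 over all tested genes. Groups that did not overlap were found for 0 of the 10 members and for 4.57% of all genes. Smaller differences than the intervals given below could not be told from 0 with 5 tumors a group.

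**Figure D1:**
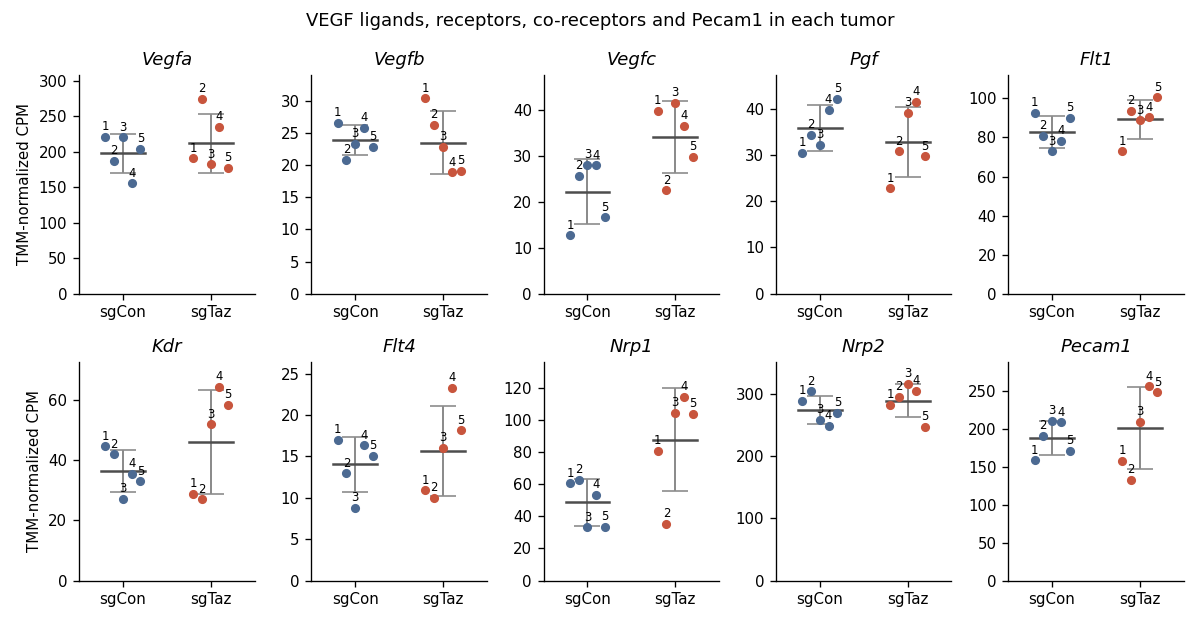
TMM-normalized CPM of the 10 members in each of 5 sgCon (blue) and 5 sgTaz (red) tumors, numbered by replicate, with the group mean and SD as bars; every vertical axis starts at 0. For Nrp1 and Vegfc, sgTaz tumor 2 lies within the range of the sgCon tumors and the other 4 sgTaz tumors lie above all of them.

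Vegfa (ENSMUSG00000023951.17, chr17:46016993-46032369, minus strand), the main ligand of blood vessel growth, was at 221, 187, 221, 155 and 204 CPM in sgCon tumors 1 to 5 and at 191, 275, 183, 235 and 177 CPM in sgTaz tumors 1 to 5. The highest value was in sgTaz tumor 2, the lowest in sgCon tumor 4, and the groups overlapped. Means were 198 ± 27.4 and 212 ± 41.7 CPM (SD, n = 5), a fold of 1.07 (95% interval 0.87 to 1.32) with an edgeR adjusted p = 0.697.

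Vegfb (ENSMUSG00000024962.13, chr19:6982473-6987651, minus strand), a ligand of Flt1, was between 20.8 and 26.5 CPM in sgCon tumors and between 18.9 and 30.4 CPM in sgTaz tumors. Its 2 lowest values and its highest were all in sgTaz tumors, and the spread there was an SD of 4.9 against 2.33 CPM. The fold was 0.984 (0.795 to 1.22, edgeR adjusted p = 0.941).

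Pgf (ENSMUSG00000004791.7, chr12:85166635-85177790, minus strand), the placental growth factor that also binds Flt1, had a mean of 35.8 ± 4.94 CPM in sgCon and 32.8 ± 7.57 CPM in sgTaz tumors (SD, n = 5). Its fold was 0.916 (0.718 to 1.17, edgeR adjusted p = 0.675). The 2 lowest of the 10 values, 22.8 and 29.7 CPM, were in sgTaz tumors 1 and 5.

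Vegfc (ENSMUSG00000031520.6, chr8:54077606-54187096, plus strand), the lymphatic growth factor, was at 12.7, 25.6, 28.0, 28.0 and 16.6 CPM in sgCon tumors 1 to 5 and at 39.8, 22.5, 41.5, 36.5 and 29.8 CPM in sgTaz tumors 1 to 5. Of the sgTaz tumors 4 were above every sgCon tumor, and tumor 2 was inside their range. Means were 22.2 ± 7.06 and 34.0 ± 7.85 CPM (SD, n = 5), a log2 fold change of 0.62 (SE 0.24) and a fold of 1.53 (1.07 to 2.2). The difference did not pass in edgeR (p = 0.0242, adjusted p = 0.174), in DESeq2 (adjusted p = 0.0975) or in the exact two-sided permutation test over tumors (p = 0.0556, where 0.00794 is the smallest p that 5 against 5 allow), and it passed in limma-voom (adjusted p = 0.0389). The exact permutation p was 0.0238 without sgTaz tumor 2, the tumor that ran against the others, and 0.0556 to 0.119 without any other 1 tumor. In edgeR the adjusted p without sgTaz tumor 2 was 0.0968. Leaving out this tumor, the only sgTaz tumor inside the sgCon range, raises the difference and lowers these p by itself.

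Per kb of exon, which makes levels comparable between genes, Vegfa was the most abundant ligand and its share of the 4 ligands was 55.8 ± 5.51% in sgCon and 55.1 ± 5.92% in sgTaz tumors (SD, n = 5). The share of Vegfc was 11.1 ± 3.67% and 15.8 ± 4.02% (exact permutation p = 0.0952), that of Vegfb 18.1% and 16.4%, and that of Pgf 15.0% and 12.7%. No share of a ligand differed at p below 0.05 in these exact tests.

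Kdr (ENSMUSG00000062960.10, chr5:75932827-75978458, minus strand), the main signalling receptor of VEGF-A, was at 44.6, 41.9, 27.2, 35.4 and 32.9 CPM in sgCon tumors 1 to 5 and at 28.7, 27.0, 51.9, 64.3 and 58.4 CPM in sgTaz tumors 1 to 5. The sgTaz tumors lay in separate ranges: 3, 4 and 5 were above every sgCon tumor, 1 was near the lowest sgCon tumor, and 2 was below it. Means were 36.4 ± 6.97 and 46.0 ± 17.2 CPM (SD, n = 5), a fold of 1.26 (0.869 to 1.84) with an edgeR adjusted p = 0.441. The 3 high tumors were also the 3 with the highest adipocyte markers.

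Flt4 (ENSMUSG00000020357.3, chr11:49609263-49652739, plus strand), the receptor of VEGF-C, was at 17.0, 13.0, 8.8, 16.3 and 15.1 CPM in sgCon tumors 1 to 5 and at 10.9, 10.01, 16.0, 23.3 and 18.1 CPM in sgTaz tumors 1 to 5. As with Kdr, sgTaz tumors 3, 4 and 5 were higher than sgTaz tumors 1 and 2, and the groups overlapped. The fold was 1.11 (0.764 to 1.63, edgeR adjusted p = 0.742).

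Flt1 (ENSMUSG00000029648.13, chr5:147561604-147726011, minus strand), the high-affinity receptor of VEGF-A, VEGF-B and Pgf, varied little. It was between 72.9 and 92.7 CPM in sgCon tumors and between 72.9 and 100.5 CPM in sgTaz tumors, with means of 82.9 ± 8.26 and 89.2 ± 10.2 CPM (SD, n = 5). The fold was 1.08 (0.928 to 1.25, edgeR adjusted p = 0.552).

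Nrp1 (ENSMUSG00000025810.9, chr8:128358604-128503363, plus strand), the co-receptor that pairs with Kdr and with the plexins, was at 60.5, 62.7, 33.2, 53.2 and 33.5 CPM in sgCon tumors 1 to 5 and at 80.9, 35.3, 105, 114 and 104 CPM in sgTaz tumors 1 to 5. The 4 highest of the sgTaz tumors were above every sgCon tumor, and sgTaz tumor 2 was near the lowest sgCon tumors. Means were 48.6 ± 14.4 and 87.8 ± 31.8 CPM (SD, n = 5), a log2 fold change of 0.85 (SE 0.30) and a fold of 1.8 (1.15 to 2.83). In edgeR the difference did not pass (p = 0.0149, adjusted p = 0.148), nor did the exact permutation test (p = 0.0714). It passed in DESeq2 (log2 fold change 0.87, adjusted p = 0.0451) and in limma-voom (0.95, adjusted p = 0.0424). Without sgTaz tumor 2, the low one, the log2 fold change was 1.05 (edgeR adjusted p = 0.0534, exact permutation p = 0.00794). Leaving out the only sgTaz tumor inside the sgCon range raises the difference and lowers these p by itself. The exact permutation p was 0.0714 to 0.143 without any other 1 tumor. Without sgTaz tumors 3, 4 and 5, which hold the 3 highest Nrp1 values and the 3 highest adipocyte scores, the log2 fold change was 0.27 (edgeR adjusted p = 0.814), a value that the choice of these tumors lowers by itself. An exon of Nrp1 overlaps Mir1903 on the same strand over 80 bases of its 9785 exonic bases.

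Nrp2 (ENSMUSG00000025969.15, chr1:62703285-62818695, plus strand), the neuropilin of VEGF-C and class 3 semaphorins, was the steadiest member. It was between 248 and 304 CPM in sgCon and between 247 and 316 CPM in sgTaz tumors. The fold was 1.06 (0.929 to 1.2, edgeR adjusted p = 0.615), an interval that leaves out the 1.8-fold found for Nrp1.

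Pecam1 (ENSMUSG00000020717.19, chr11:106654217-106750628, minus strand), which joins endothelial cells and is also found on platelets and leukocytes, was at 158, 191, 210, 208 and 171 CPM in sgCon tumors 1 to 5 and at 158, 132, 209, 256 and 247 CPM in sgTaz tumors 1 to 5. Both the lowest and the highest values were in sgTaz tumors, with an SD of 54.3 against 22.9 CPM. The fold was 1.07 (0.821 to 1.39, edgeR adjusted p = 0.779).

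**Figure D2:**
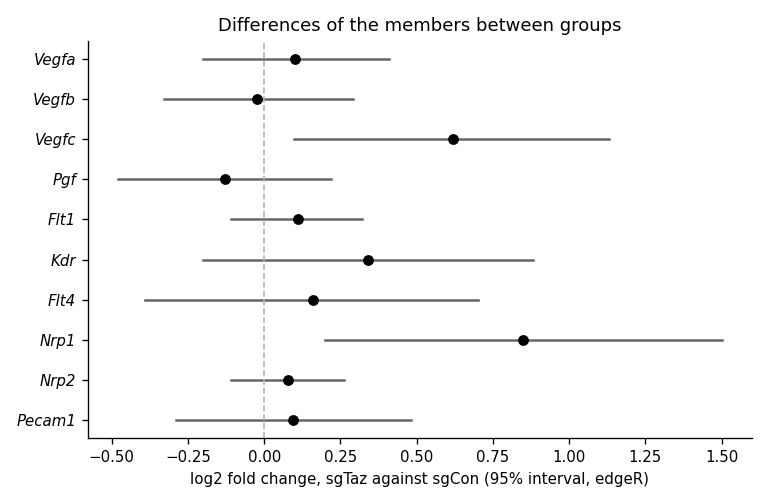
Log2 fold change of each member between sgTaz and sgCon tumors (points) with its 95% interval (lines) from edgeR, n = 5 tumors a group; the dashed line marks no difference. The intervals of Nrp1 (0.20 to 1.5) and Vegfc (0.096 to 1.13) leave out 0 before adjustment over all genes, and those of the other 8 members hold it.

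The order of the members by level per kb of exon, as the mean of the 10 tumors, was Vegfa at 47.8 CPM per kb, Pecam1 at 31.1, Nrp2 at 23.7, Vegfb at 14.7, Pgf at 11.8, Vegfc at 11.5, Nrp1 at 6.97, Flt1 at 6.37, Kdr at 4.56 and Flt4 at 1.80. Neighbours in this order overlapped over the tumors except that every tumor had Nrp2 above every value of Vegfb and Kdr above every value of Flt4. Within each tumor, Vegfa was above Pecam1 and Nrp2 above Vegfb in 10 of 10 tumors, whereas Pgf was above Vegfc, and Nrp1 above Flt1, in 5 of 10. In the means by group, Vegfc passed from 9.06 ± 2.88 CPM per kb in sgCon, below Pgf at 12.3 ± 1.7, to 13.9 ± 3.2 in sgTaz, above Pgf at 11.3 ± 2.61 (SD, n = 5). Nrp1 and Flt1 changed places in the same way, with 4.97 ± 1.47 and 6.14 ± 0.612 CPM per kb in sgCon and 8.97 ± 3.25 and 6.61 ± 0.753 in sgTaz tumors. Exon lengths are those of all exons of a gene in GENCODE M21, which may not be the annotation used in counting, and do not follow the transcripts used in these tumors.

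**Figure D3:**
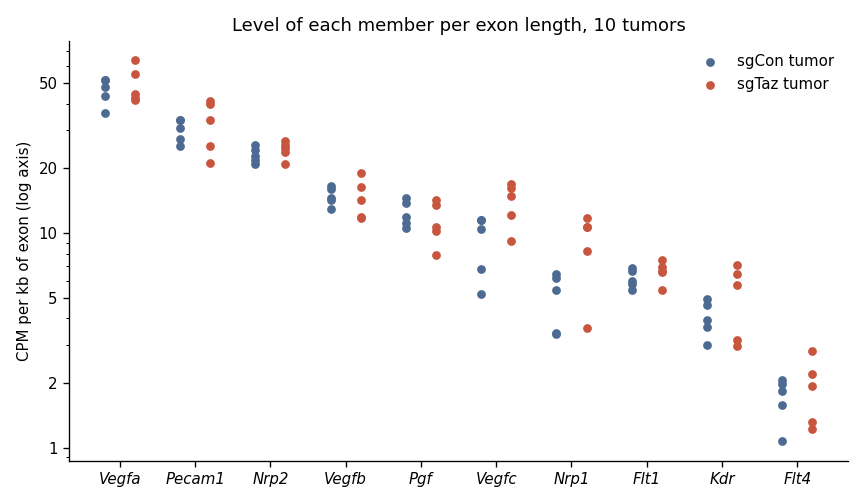
Level of each member in CPM per kb of exon on a log axis, in 5 sgCon (blue) and 5 sgTaz (red) tumors, ordered by the mean of the 10 tumors. Levels run from 1.80 CPM per kb for Flt4 to 47.8 for Vegfa.

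Receptor RNA in a whole tumor can depend on the amount of vessel sampled, so each receptor, both neuropilins and Pecam1 were also set against the mean log2 CPM of 20 other endothelial genes in the same tumor. On this log2 scale Nrp1 was at 0.93, 0.82, 0.30, 0.37 and 0.11 in sgCon tumors 1 to 5 and at 1.5, 0.44, 1.46, 1.37 and 1.33 in sgTaz tumors 1 to 5. Again 4 of the 5 sgTaz tumors were above every sgCon tumor. The difference was 0.72 (exact permutation p = 0.0238, adjusted over the 6 genes examined 0.143). Leaving out 1 tumor at a time, it was 0.62 to 0.91, and p was 0.0556 without any 1 of sgTaz tumors 1, 3, 4 and 5. For Kdr the difference was 0.19 (exact permutation p = 0.286), and for Flt1, Flt4, Nrp2 and Pecam1 it was between -0.02 and 0.046. In which cells the Nrp1 RNA lay was not measured.

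**Figure D4:**
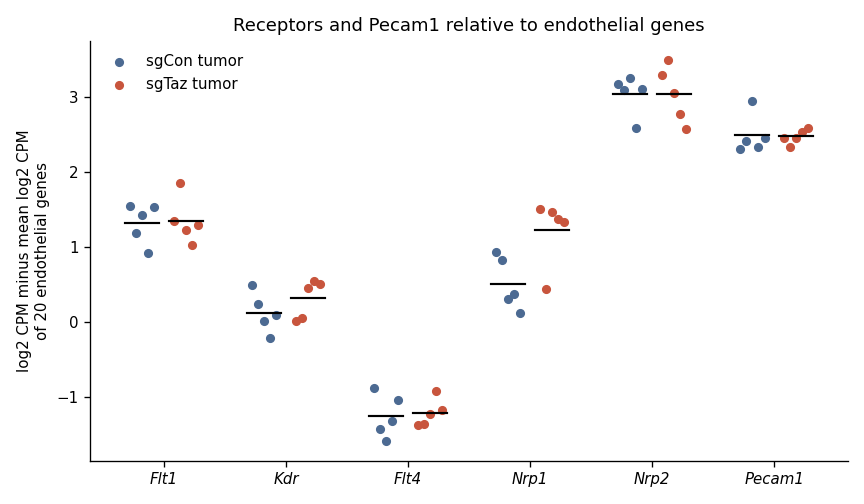
Log2 CPM of 6 members minus the mean log2 CPM of 20 endothelial genes in the same tumor, for 5 sgCon (blue) and 5 sgTaz (red) tumors, with group means as lines. Nrp1 differs by 0.72 between the means, with sgTaz tumor 2 (0.44) among the sgCon tumors, and Flt1, Flt4, Nrp2 and Pecam1 differ by at most 0.046.

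The endothelial list itself showed no common shift. Of its 20 genes 12 were higher and 8 lower in sgTaz tumors, with a median log2 fold change of 0.066, and the mean log2 CPM over the list was 5.05 ± 0.23 and 5.13 ± 0.33 (SD, n = 5, exact permutation p = 0.667). Eng, the TGF-beta co-receptor of activated endothelium, which macrophages and stromal cells also carry, had the smallest edgeR p of the list. It was at 164, 149, 128, 167 and 142 CPM in sgCon tumors 1 to 5 and at 191, 190.4, 203, 183 and 182 CPM in sgTaz tumors 1 to 5, so that the groups did not overlap. Groups without overlap were found for 1 of the 20 endothelial genes, near the 4.57% of all genes. The log2 fold change of Eng was 0.34 (SE 0.08), with adjusted p = 0.096 in edgeR, 0.00802 in DESeq2 and 0.0232 in limma-voom. The next genes of the list by p were Cd93, a receptor of angiogenic endothelium (0.60, edgeR adjusted p = 0.242), and Icam2, an endothelial adhesion ligand of leukocytes (-0.35, 0.391).

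Of the 9 mural cell genes 5 were higher and 4 lower (median 0.028). Pdgfrb, the receptor that recruits pericytes, was at 60.4 ± 12.5 and 82.0 ± 18.3 CPM (SD, n = 5, edgeR adjusted p = 0.192), Kcnj8, a pericyte potassium channel, had a log2 fold change of -0.27 (adjusted p = 0.54), and Des, the muscle intermediate filament desmin, one of -1.23 (edgeR adjusted p = 0.153, DESeq2 adjusted p = 0.0492). The 7 lymphatic genes, read beside Vegfc and Flt4, were 3 higher and 4 lower (median -0.37). Lyve1, the hyaluronan receptor of lymphatic vessels and of some macrophages, was at 9.73 ± 3.52 and 5.52 ± 5.0 CPM (edgeR adjusted p = 0.429). Reln, made by lymphatic endothelium, had a log2 fold change of -1.99 (adjusted p = 0.17), and Itga9, an integrin chain, one of 0.42 (edgeR adjusted p = 0.142). The lymphatic markers thus had no common direction. Genes of high endothelium and lymph node stroma, of which 5 of 7 passed the filter, were lower in 5 of 5, with a median of -1.87 and summed levels of 30.4 to 493 CPM in sgCon and 1.87 to 305 CPM in sgTaz tumors. The highest sgTaz value was that of tumor 5. EdgeR called 0 of these 5 genes at an unadjusted p below 0.05, beside 11.9% of all genes called lower. Limma-voom called 3 of them lower at an adjusted p below 0.05, beside 860 of all 14816 genes.

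In the pathway downstream of the receptors, 9 of 20 tested genes were higher and 11 lower in sgTaz tumors (median -0.05), and edgeR called 0 at an adjusted p and 5 at an unadjusted p, 1 higher and 4 lower, which is near the 21.8% of all genes. The gene of the ligand VEGF-D, Vegfd, did not pass the filter, at 0.278 to 0.822 CPM in sgCon and 0.127 to 2.69 CPM in sgTaz tumors. Shb, an adaptor that binds the Kdr protein, was at 20.9, 19.7, 20.6, 22.1 and 20.6 CPM in sgCon and 19.9, 19.1, 14.3, 12.4 and 12.9 CPM in sgTaz tumors 1 to 5 (log2 fold change -0.40, edgeR adjusted p = 0.152, limma-voom 0.0286). Prkcb and Prkd2, kinases of the protein kinase C and D families, had log2 fold changes of -0.71 and -0.58 (edgeR adjusted p = 0.169 and 0.144). Both kinases are also expressed in lymphocytes, and both were highest in sgCon tumor 3 (51.4 and 101 CPM), the tumor with the highest B cell markers, a link that was not tested.

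Partners of the neuropilins were higher in 10 of 13 genes (median 0.25), with 3 called higher and 0 lower at an unadjusted p below 0.05 in edgeR (21.8% of all genes were called either way and 9.86% higher) and 0 at an adjusted p. These 3 were the semaphorins Sema3b (12.7 ± 7.19 and 22.3 ± 6.3 CPM, SD, n = 5, edgeR adjusted p = 0.226) and Sema3f (146 ± 19.8 and 176 ± 21.5 CPM, adjusted p = 0.192), which are secreted ligands of neuropilins, and the plexin Plxnd1 (154 ± 18.7 and 182 ± 20.8 CPM, adjusted p = 0.197), an endothelial semaphorin receptor. Limma-voom called Sema3b and Plxnd1 (adjusted p = 0.0375 and 0.0469).

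Of the angiopoietin, Notch and sprouting genes 13 of 17 were higher (median 0.093). At an unadjusted p below 0.05 in edgeR 1 of 17 was called, a lower share than the 21.8% of all genes. The gene called was Angpt1, the vessel-stabilizing ligand of the receptor Tek, at 10.5, 59.6, 32.3, 45.8 and 11.4 CPM in sgCon tumors 1 to 5 and 125, 22.7, 139, 84.2 and 57.6 CPM in sgTaz tumors 1 to 5. As with Vegfc, sgCon tumors 1 and 5 were the lowest of their group and sgTaz tumor 2 the lowest of its own. The log2 fold change of Angpt1 was 1.42 (SE 0.55, edgeR adjusted p = 0.176). Vash1, an angiogenesis inhibitor made by endothelial cells, was at 11.1 ± 3.64 and 16.7 ± 6.05 CPM (SD, n = 5, edgeR adjusted p = 0.284). Esm1, a secreted tip cell marker that VEGF-A induces, was at 23.8 ± 7.0 and 36.8 ± 24.9 CPM (SD, n = 5, edgeR adjusted p = 0.347), with 80.2 CPM in sgTaz tumor 4.

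Hypoxia induces Vegfa in many tissues, and 11 hypoxia response genes were read beside it. Of these 4 were higher and 7 lower (median -0.26), with 1 called higher and 5 lower at an unadjusted p below 0.05, beside 9.86% and 11.9% of all genes. Ldha, a lactate dehydrogenase chain, was at 1031 to 1135 CPM in sgCon and 831 to 1021 CPM in sgTaz tumors without overlap (log2 fold change -0.24, edgeR adjusted p = 0.119, DESeq2 adjusted p = 0.0449). Groups did not overlap for 1 of the 11 genes, beside 4.57% of all genes. Slc2a1, the glucose transporter GLUT1, had a log2 fold change of -0.40 (edgeR adjusted p = 0.132). Egln3, a prolyl hydroxylase that marks hypoxia-inducible factors for degradation, was at 199.6 ± 62.1 and 312 ± 44.9 CPM (SD, n = 5), a log2 fold change of 0.65 (edgeR adjusted p = 0.114, DESeq2 adjusted p = 0.027).

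Members were then compared with marker lists within groups, that is after the group means were taken off, over the 10 tumors. Of 40 relations to the endothelial, macrophage, epithelial and lymph node lists, 1 passed an adjusted p of 0.05. Vegfc was lower where epithelial markers were higher (Pearson r = -0.861, exact permutation p = 0.00118, adjusted 0.0472; Spearman rho = -0.782, p = 0.0169, adjusted 0.17). The r was -0.828 without sgCon tumor 1 and sgTaz tumor 1, whose epithelial score was farthest from its median, and -0.665 without sgTaz tumor 2 and sgCon tumor 1, which were farthest once the group means were taken off. The 10 epithelial genes were lower in sgTaz in 10 of 10 (median -0.50), so they differed between groups in the direction opposite to Vegfc. At an unadjusted p below 0.05 in edgeR 5 were called lower, beside 11.9% of all genes. The part of the tumor cell share in the Vegfc difference was not tested.

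With the endothelial list, r was 0.868 for Flt4 (exact permutation p = 0.0066, adjusted 0.088; rho = 0.794, p = 0.0164), 0.858 for Kdr (p = 0.0138, adjusted 0.11; rho = 0.83, p = 0.0163) and 0.796 for Nrp1 (p = 0.0059, adjusted 0.088; rho = 0.758, p = 0.0214). With sgTaz tumors 2 and 4, whose endothelial score was farthest from its median, left out, these r were 0.776, 0.74 and 0.663. The endothelial score was 4.84 and 4.71 in sgTaz tumors 1 and 2 and 5.25, 5.47 and 5.37 in sgTaz tumors 3, 4 and 5. Kdr, Flt4, Nrp1 and Pecam1 were also lower in sgTaz tumors 1 and 2 than in 3, 4 and 5. Their r with this list thus rest in part on this split, which leaving out sgTaz tumors 2 and 4 does not remove. For Pecam1 r was 0.793 (exact permutation p = 0.0295, adjusted 0.152; rho = 0.709, p = 0.0632), and 0.59 without sgTaz tumors 2 and 4. For Flt1 it was 0.277 (exact permutation p = 0.51) and for Nrp2 -0.076 (p = 0.858). Kdr, Flt4 and Nrp1 also had positive r among themselves. Of 45 pairs of members, 1 passed an adjusted p of 0.05, Kdr with Nrp1 (r = 0.832, exact permutation p = 0.000417, adjusted 0.0188; rho = 0.855, p = 0.00146, adjusted 0.0656; r = 0.801 without sgTaz tumors 4 and 5, farthest from the Kdr median, and 0.865 without sgTaz tumors 1 and 2, farthest once the group means were taken off). The pair of Kdr and Flt4 had r = 0.888 (exact permutation p = 0.00375, adjusted 0.0844), 0.8 without sgTaz tumors 4 and 5, and 0.751 without sgTaz tumors 1 and 2. Flt4 with Nrp1 had r = 0.717 (exact permutation p = 0.0243, adjusted 0.282), and 0.393 without sgCon tumor 3 and sgTaz tumor 2, farthest from the Flt4 median.

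Macrophages can carry Nrp1. At an unadjusted p below 0.05 in edgeR, 6 of their 10 markers were called higher, beside 9.86% of all genes. These markers were higher in sgTaz in 10 of 10, with a median log2 fold change of 0.48. Their mean log2 CPM was 6.35, 6.97, 6.57, 7.02 and 5.96 in sgCon tumors 1 to 5 and 7.18, 6.84, 7.25, 7.29 and 7.27 in sgTaz tumors 1 to 5. The lowest sgTaz tumor was tumor 2, as for Nrp1. Within groups, r between Nrp1 and this list was 0.616 (exact permutation p = 0.0304, adjusted 0.152; rho = 0.6, p = 0.0884), 0.936 without sgCon tumors 1 and 5, and 0.646 without sgCon tumors 4 and 5. Nrp1 was not alone in this. With the same list r was 0.727 for Vegfc (exact permutation p = 0.0499, adjusted 0.2) and 0.561 for Pecam1 (p = 0.0128, adjusted 0.11). For Vegfa it was -0.607 (exact permutation p = 0.0488, adjusted 0.2). The part of macrophages in the Nrp1 difference was not tested.

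Adipocyte markers lay at separate levels. Their mean log2 CPM was 2.08, 2.35, -0.014, 0.33 and 1.56 in sgCon tumors 1 to 5 and -0.68, -0.91, 3.54, 3.58 and 3.77 in sgTaz tumors 1 to 5, from 6 of 7 genes that passed the filter, with summed levels of 6.74 to 44.4 and 3.76 to 125 CPM. The 3 sgTaz tumors with high adipocyte markers held the 3 highest sgTaz values of Kdr, Flt4, Pecam1 and Nrp1. In the same way sgCon tumors 1 and 2, the highest of their group in these markers, held the 2 highest sgCon values of Kdr and Nrp1, but not of Flt4 and Pecam1. Flt4 was at 17.0 and 13.0 CPM in sgCon tumors 1 and 2 and at 16.3 CPM in sgCon tumor 4. Among sgCon tumors Pecam1 was lowest in tumor 1 (158 CPM) and highest in tumor 3 (210 CPM), which had the lowest adipocyte score of the group. In sgTaz tumor 1 adipocyte markers were lower than in any sgCon tumor, while Nrp1 (80.9 CPM) and Vegfc (39.8 CPM) were above every sgCon tumor. Of 20 relations of the members to the adipocyte and fibroblast lists, 0 passed an adjusted p of 0.05 in the exact permutation test within groups. The lowest adjusted p, 0.0528, was shared by Kdr and Nrp1 with the adipocyte list and by Kdr and Flt1 with the fibroblast list, all higher where the list was higher. No coefficient is given for adipocytes because the tumors lay in separate clusters. For the fibroblast list r was 0.817 for Kdr (exact permutation p = 0.00799; rho = 0.794, p = 0.0333) and 0.817 for Flt1 (p = 0.00931; rho = 0.733, p = 0.0253), and 0.798 and 0.311 without sgTaz tumor 1 and sgCon tumor 3. Adipose tissue is rich in capillaries, and the part of fat pad tissue in the receptor levels was not tested beyond these values. Fibroblast genes were 4 higher and 3 lower (median 0.035), and neutrophil genes lower in 6 of 6 (median -0.96). Of the neutrophil genes 4 were called lower at an unadjusted p below 0.05 in edgeR, beside 11.9% of all genes.

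**Figure D5:**
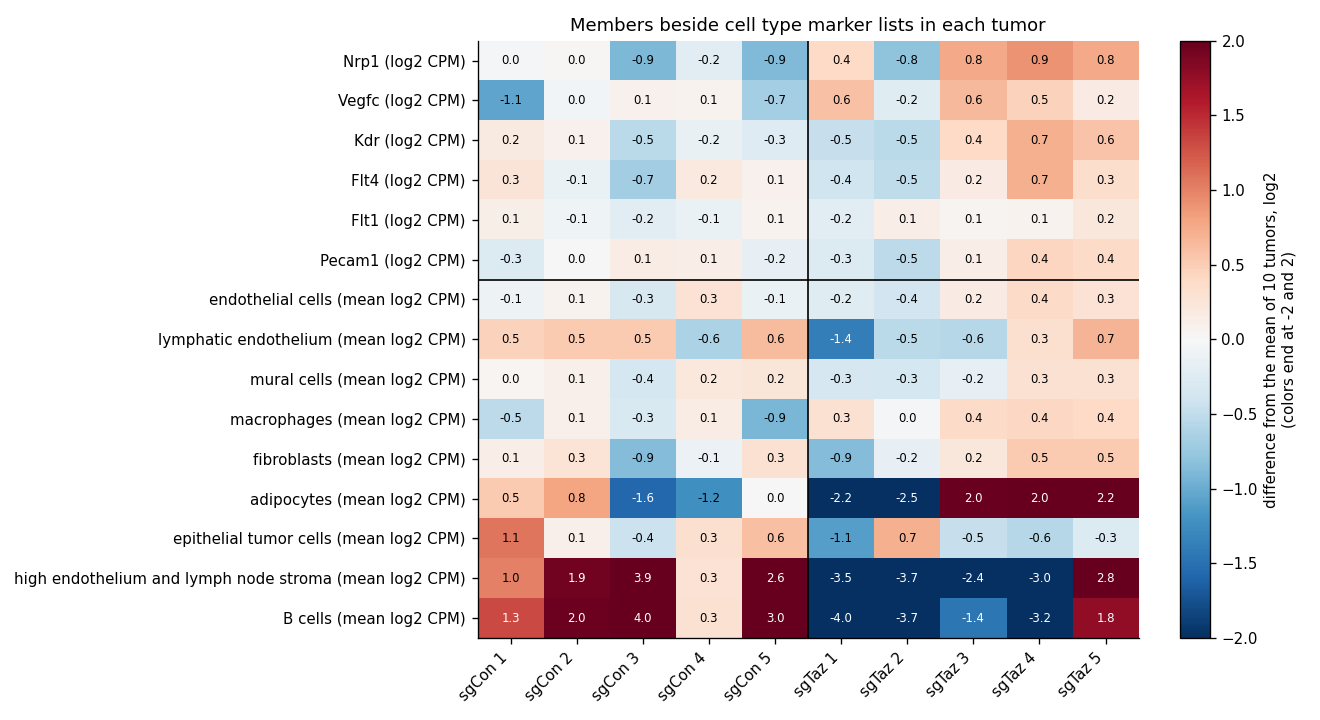
Log2 CPM of 6 members (top rows) and mean log2 CPM of 9 marker lists (lower rows) in each of the 10 tumors, as the difference from the mean of the 10 tumors; red is higher and blue lower, and colors end at -2 and 2. Kdr and Flt4 share the pattern of the adipocyte and endothelial lists in sgTaz tumors, low in 1 and 2 and high in 3, 4 and 5, while Nrp1 and Vegfc are high in sgTaz tumor 1 as well.

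By likeness over the 10 tumors with group means taken off, among 11538 genes with a mean of at least 5 CPM, the genes most like Kdr were Prex2 (r = 0.965), Lama4 (0.958), a laminin chain of vessel and fat basement membranes, and Car3 (0.949), a carbonic anhydrase abundant in adipocytes and muscle. Those most like Pecam1 were Clec14a (0.971), an endothelial lectin, Abcg3 (0.961) and Meox2 (0.945), a vascular homeobox gene. For Flt4 they were Cog6 (0.966), Abcc9 (0.958), a potassium channel subunit of pericytes, and Cd109 (0.955), and for Nrp1 Nme2 (0.976), Sned1 (0.958) and Eprs (0.951). The genes most like Vegfc were Rbpms (0.966), Ada (0.965) and Ccn5 (0.96), and those most like Vegfa were Gm20045 (0.934), Cdc45 (0.89) and Angptl2 (0.888). These are the highest of many coefficients over 10 tumors and are given as a description.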

How the data were processed

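RNA of 10 whole 4T1 tumors (5 sgCon, 5 sgTaz) was sequenced by the authors. Per the labels and methods, the authors mapped reads to mm10 (GRCm38) by the 2-pass method of STAR, using GENCODE annotation, and counted them per gene with featureCounts of Subread; CASAVA is also listed in the submitters' processing notes. The methods name GENCODE v12, whereas 17673 of the identifiers matched GENCODE M21 with their version, so the annotation used in counting is uncertain. The strand setting and tool versions are not given in the sources used here. The deposited values are raw counts, whole numbers for 17864 genes. The table has 5 further columns, headed as mammary fat pads, that match no sample and were not used. Total counts were 12185383 to 19595821 per tumor; 3 counts are 1.53e-05% to 2.46e-05% of them. No labels say that same-numbered tumors belong together, and replicates were taken as separate tumors, so p-values measure the spread between these samples. No pair of libraries of the same group agreed within sampling noise (chi-square per gene 6.5 to 75.6), and pairs across groups were not compared.

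The main test was edgeR 4.0.16 in R 4.3.3 (TMM, filterByExpr by group, glmQLFit, glmQLFTest, Benjamini-Hochberg over 14816 genes, threshold 0.05), checked on simulated counts with 200 changed genes. CPM values are TMM-normalized, and log2 CPM used a prior count of 2. Alternatives were DESeq2 1.42.0, limma 3.58.1 (voom with quality weights), other normalizations and filters, GC and length offsets, a replicate block and left-out tumors. Exact two-sided permutation tests were run over tumors, and within groups for correlations, in Python 3.11.15 with scipy 1.17.1 and numpy 2.4.6. Gene positions, lengths and names come from GENCODE M21 (GRCm38), in which 17860 identifiers were found without their version; promoters come from RefSeq (GRCm38.p6). Pecam1 has no promoter sequence here.

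The members and the 14 gene lists were chosen with earlier results of these data known. Named are the members, Wwtr1, the 3 genes with the smallest p in each of the VEGF signalling, neuropilin partner, angiopoietin and Notch, hypoxia, endothelial, lymphatic and mural lists, and the 3 genes most like each of 6 members; Vegfd, the remaining VEGF ligand, was named after its values were seen. The relations among members, those to adipocyte and fibroblast lists, the fits without sgTaz tumors 3 and 4 and without 3, 4 and 5, and the correlations without the tumors farthest in deviation from their group means were chosen after seeing the data.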

Additional observations from a re-analysis of the deposited data

Results flagged for a closer look

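Of 60 groups of 5 tumors examined, 6 held a tumor far from the other 4 by Dixon's criterion, where 3.0 are expected by chance at 5%. In Nrp1 relative to the endothelial genes, sgTaz tumor 2 was at 0.44 on the log2 scale and the other sgTaz tumors at 1.33 to 1.5. The macrophage score (the mean log2 CPM of a marker list) of the same tumor was 6.84 beside 7.18 to 7.29. In sgTaz tumor 5 the score of high endothelium and lymph node stroma was 4.42 beside -2.05 to -0.71. In sgCon tumor 4 the lymphatic score was 1.62 beside 2.72 to 2.88, and Nrp2 relative to the endothelial genes was 2.59 beside 3.09 to 3.25. In sgCon tumor 3, Pecam1 relative to the endothelial genes was 2.95 beside 2.31 to 2.45.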

How the results depend on the processing

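Under edgeR 1 gene was called over all genes, against 1085 in DESeq2, 1546 in limma-voom with quality weights and 5 with at least 10 counts in every tumor. Without the filter, with the replicate block, with GC and length offsets, with the block and offsets together, and without sgTaz tumors 3 and 4 or 3, 4 and 5, edgeR called 0 genes, with 3610, 2462, 3081, 2447, 1386 and 1848 at an unadjusted p below 0.05. Leaving out 1 tumor gave 0 to 172 genes, 75 without sgTaz tumor 2 and 172 without sgTaz tumor 5. The cause of these differences was not tested. Nrp1 was past the threshold in DESeq2 (log2 fold change 0.87) and limma-voom (0.95), and Vegfc in limma-voom (0.79). In all 21 fits both stayed higher in sgTaz, Nrp1 at 0.27 to 1.05 and Vegfc at 0.47 to 0.79, while Pgf stayed lower (-0.40 to -0.016). Same-numbered tumors did not deviate together (r from -0.243 to 0.221), so no pairing was assumed. With the replicate block Nrp1 was at 0.82 (adjusted p = 0.30) and Vegfc at 0.64 (0.245). Nrp1 relative to the endothelial genes, at exact permutation p = 0.0238, had p = 0.125 by sign flips of same-numbered pairs, where 0.0625 is the smallest possible. Vegfb changed sign without the filter (0.0031), with offsets (0.14, and 0.14 with the block), without sgTaz tumors 3 and 4 (0.082) and without 3, 4 and 5 (0.26). Without sgTaz tumors 3 and 4, Flt4 was at -0.11 and Pecam1 at -0.064, and without 3, 4 and 5 Kdr was at -0.37, Flt4 at -0.41 and Pecam1 at -0.35; these 3 tumors hold the highest sgTaz values of Kdr, Flt4 and Pecam1, so leaving them out lowers each by construction. Leaving out 1 tumor, the edgeR log2 fold changes ran from -0.0076 to 0.16 for Vegfa, -0.13 to 0.046 for Vegfb, -0.028 to 0.28 for Flt4 and -0.007 to 0.21 for Pecam1. In the same order, the differences of mean log2 CPM ran from -0.0052 to 0.15, -0.14 to 0.029, -0.035 to 0.27 and -0.041 to 0.20. Relative to the endothelial genes they ran from -0.10 to 0.10 for Flt1, -0.04 to 0.14 for Flt4, 0.62 to 0.91 for Nrp1, -0.12 to 0.11 for Nrp2 and -0.066 to 0.094 for Pecam1. With the median in place of the mean of the list, Nrp2 was at 0.022 and Pecam1 at 0.0031, and 2 relations instead of 1 passed the threshold. All counts rest on 5 tumors a group and 12185383 or more counts per tumor.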
